A study of Mus musculus with 10 samples.

Results

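The colony-stimulating factors and their receptors set the number, survival and activity of myeloid cells, and 8 of their genes were followed here in treated mouse skin. They were taken by gene symbol from the 24454 entries of the count table: the ligands *Csf1*, *Il34*, *Csf2* and *Csf3*, and the receptors *Csf1r*, *Csf2ra*, *Csf2rb* and *Csf3r*. Back skin of C57BL/6 mice was compared between 5 WT mice and 5 *Zfp36*ΔARE mice, in which an AU-rich instability motif is deleted from the 3′-UTR of the endogenous gene for tristetraprolin (TTP, encoded by *Zfp36*). All mice, the littermate controls included, received DMBA once, a mutagen that starts lesions, at 400 nmol and at 7 weeks of age, and then TPA, a phorbol ester that promotes them, at 10 nmol 2 times a week for 20 weeks. RNA came from full-thickness skin of the treated patch that held no tumor. The deletion acts in every tissue, so no cell type is singled out by the model, and no library of untreated skin was part of the comparison.

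CSF1 and IL-34 are alternative ligands of one receptor, CSF1R, on which macrophages, monocytes and their relatives depend. CSF1 is made mainly by stromal cells, while IL-34 in skin comes chiefly from keratinocytes and is needed by Langerhans cells. GM-CSF, encoded by *Csf2*, signals through a specific alpha chain, CSF2RA, paired with the common beta chain CSF2RB, which also serves the IL-3 and IL-5 receptors. G-CSF, encoded by *Csf3*, acts through CSF3R, the receptor that drives neutrophil production. TTP binds AU-rich elements, whose core is the pentamer ATTTA, and shortens the life of the messages that carry them. *Csf2* is a long-known TTP target.

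The 3′-UTRs of the ligands differed widely in these pentamers, and the stretches below are shown because they are the densest in each annotated ligand 3′-UTR. They were read from the mm10 (GRCm38) genome with the GENCODE annotation, 1 transcript per gene, on the strand of the gene, and capitals mark ATTTA.
*Csf2*: atATTTATTTATTTATTTATTTAtt
*Csf3*: ttATTTAtctctATTTAatATTTAtg
*Csf1*: tcATTTAaatatctATTTAaa
*Il34*: ccATTTAtt

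The *Csf2* stretch lies at chr11:54247327-54247351 on the minus strand, in the 3′-UTR of the last of 4 exons. That UTR has 317 bases and holds 9 pentamers, counted with overlaps, which is 28.4 per kilobase, and 4 copies of the nonamer TTATTTATT. The *Csf3* stretch is at chr11:98702990-98703015 on the plus strand, in a 3′-UTR of 669 bases with 6 pentamers. For *Csf1*, whose stretch is at chr3:107741107-107741127 on the minus strand, 4 pentamers were spread over 2111 bases. *Il34* had a single pentamer in 605 bases, at chr8:110741843-110741851 on the minus strand. Among the receptors, the annotated 3′-UTR of *Csf1r* (1669 bases) held 3 pentamers, and those of *Csf2ra* (602 bases), *Csf2rb* (1816 bases) and *Csf3r* (602 bases) held 0. The nonamer was in the 3′-UTR of *Csf2* alone among these 8 genes. For comparison, 68.4% of the 14367 tested genes with an annotated 3′-UTR had at least 1 pentamer, 21.5% had at least 5 and 7.77% had the nonamer, with a median of 1.25 pentamers per kilobase. A match to these letters is a description of the reference sequence and does not show binding.

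Library totals spanned 21638369 to 32583189 counts among WT mice and 19595024 to 36419553 among *Zfp36*ΔARE mice, with medians of 27075955 and 25929329. *Zfp36* itself was at 2152 ± 277 normalized counts in WT mice against 5427 ± 766 in *Zfp36*ΔARE mice (SD, n = 5 each; log2 fold change 1.33, SE 0.12, adjusted p = 0.0019 from edgeR), higher in each mouse that carries the deletion. A normalized count is a gene's count scaled by edgeR's TMM factors to the mean library. The skin keratin genes *Krt5* and *Krt14* were abundant in both groups, at 112958 and 107769 normalized counts and at 97413 and 88101, respectively. The libraries also differed in ways other than the labelled genotype. The hair shaft score, the mean over 9 hair keratin genes of log2(CPM + 0.5), where CPM is a count scaled to library size, was 5.31 and 2.32 in WT replicates 1 and 3, 8.07 to 8.496 in the other 3 WT libraries, and 9.19 to 10.7 in the *Zfp36*ΔARE libraries. Adipocyte scores also did not overlap (7.13 to 8.27 against 6.42 to 6.76), and skeletal muscle scores ran from 9.42 to 11.7 in WT and from 8.42 to 9.73 in *Zfp36*ΔARE libraries. *Zfp36*ΔARE replicates 2 to 5 had 3349 to 4262 counts of Y-linked genes, whereas the 5 WT libraries and *Zfp36*ΔARE replicate 1 had at most 1. *Xist*, which is transcribed from an inactive X chromosome, had 14829 to 28087 counts in those 6 libraries and 4 to 15 in the other 4. The WT libraries thus all carry female marks and 4 of the 5 *Zfp36*ΔARE libraries male marks, so sex and genotype cannot be fully told apart in any comparison here.

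The 6 genes with enough counts to be tested, *Csf1*, *Il34*, *Csf1r*, *Csf2ra*, *Csf2rb* and *Csf3r*, all fell in *Zfp36*ΔARE skin, ligands and receptors alike. The largest fall was in *Csf1r* (2.84-fold) and the smallest in *Il34* (1.56-fold), and the median log2 fold change of the 6 was -0.97, against 0.0076 over all 15543 genes tested. Each of the 6 passed an adjusted p of 0.05 with edgeR, as did 19.1% of all tested genes in the same direction, 15.3% in the other and 34.3% in either. A fall of over 2-fold was reached by 2 of them, *Csf1r* and *Csf3r*, where the background was 6.64%. In 5 of the 6, every *Zfp36*ΔARE library lay below every WT library, which held for 11.9% of all tested genes. In whole skin, fewer cells of a type and less RNA per cell cannot be told apart.

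*Csf1*, the broadly made ligand, had 2099, 1444, 1699.8, 1259.8 and 1108 normalized counts in WT replicates 1 to 5. In *Zfp36*ΔARE replicates 1 to 5 it had 833, 787, 646, 1087 and 927. The groups did not overlap, but the lowest WT library (1108) and the highest *Zfp36*ΔARE library (1087) were close. The means of 1522 ± 391 and 856 ± 164 (SD, n = 5 each) gave a log2 fold change of -0.83 (SE 0.18, adjusted p = 0.0105).

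*Il34*, the keratinocyte ligand, had 651, 524, 852, 531 and 609 normalized counts in the WT libraries and 430.1, 407, 376, 403 and 409 in the *Zfp36*ΔARE libraries. The *Zfp36*ΔARE values were tightly grouped and all lay below the lowest WT value, while WT replicate 3 stood above the other 4 WT libraries. From 633 ± 133 to 405 ± 19.5 (SD, n = 5 each), the log2 fold change was -0.64 (SE 0.13, adjusted p = 0.0079). Of the tested genes of the family, this was the smallest change.

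*Csf1r*, the receptor that both ligands share, had 5325, 5737, 5918, 3556 and 3038 normalized counts in the WT libraries and 1557, 1204, 1383, 2149.6 and 2021 in the *Zfp36*ΔARE libraries. WT replicates 4 and 5 were well below the other 3 WT libraries, and *Zfp36*ΔARE replicates 4 and 5 were the highest of their group, without overlap between the groups. With means of 4715 ± 1325 and 1663 ± 408 (SD, n = 5 each), its log2 fold change was -1.50 (SE 0.22, adjusted p = 0.0045).

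**Figure D1:**
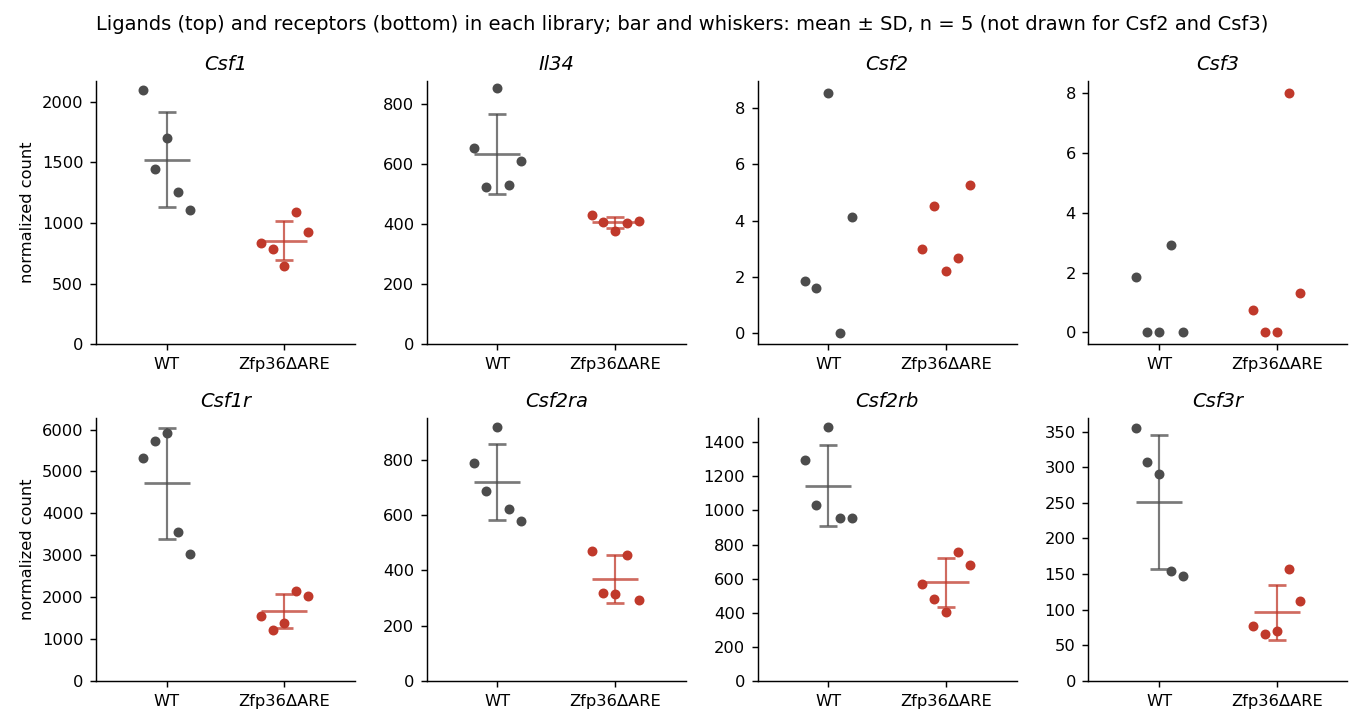
Normalized counts (y axis, linear) of the 4 ligands (top) and 4 receptors (bottom) in the 5 WT (gray) and 5 *Zfp36*ΔARE (red) libraries, each point 1 library, with the mean and SD where drawn. *Csf1*, *Il34*, *Csf1r*, *Csf2ra* and *Csf2rb* did not overlap between groups, *Csf3r* overlapped through *Zfp36*ΔARE replicate 4 (158), and *Csf2* and *Csf3* stayed at or below 8.54 in every library.

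Both chains of the GM-CSF receptor were lower by similar amounts. *Csf2ra*, the ligand-binding chain, had 789, 689, 921, 621 and 579 normalized counts in WT and 469.8, 318, 313, 457 and 291 in *Zfp36*ΔARE libraries (log2 fold change -0.96, SE 0.17, adjusted p = 0.0066). *Csf2rb*, the common signaling chain, had 1299, 1031, 1489.9, 954 and 954 in WT and 567, 483, 404, 756 and 679 in *Zfp36*ΔARE libraries (log2 fold change -0.99, SE 0.19, adjusted p = 0.0072). For neither gene did the groups overlap, and the 2 chains ordered the *Zfp36*ΔARE libraries differently, with replicate 1 highest for *Csf2ra* and replicate 4 highest for *Csf2rb*. The values of *Csf2rb* are uncertain because 18.4% of its 50-base stretches recur in the neighboring copy *Csf2rb2*, the IL-3-specific beta chain, and how such fragments were counted is not stated. *Csf2rb2* fell from 1005 ± 258 to 588 ± 146 (SD, n = 5 each; log2 fold change -0.78, SE 0.20, adjusted p = 0.0169).

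*Csf3r*, the G-CSF receptor of neutrophils and some monocytes, had 355, 307, 290.4, 154 and 148 normalized counts in WT and 77.2, 65.2, 70.3, 158 and 112 in *Zfp36*ΔARE libraries. *Zfp36*ΔARE replicate 4 lay above WT replicates 4 and 5, so the groups overlapped, and the WT libraries fell into a high set of 3 and a low set of 2. The mean fell from 251 ± 94.2 to 96.5 ± 38.8 (SD, n = 5 each), with a log2 fold change of -1.39 (SE 0.32, adjusted p = 0.0122). An exact two-sided permutation test of this gene alone gave p = 0.0238, and for each of the other 5 tested genes p = 0.00794, the smallest that 5 against 5 allow.

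*Csf2* and *Csf3*, the 2 ligands richest in ATTTA, were barely detected and did not enter the fit across genes. *Csf2* had 2, 2, 7, 0 and 4 counts in WT and 4, 5, 2, 2 and 4 in *Zfp36*ΔARE libraries. The sums of 15 and 17 counts gave a rate ratio of 1.2 (95% exact interval 0.564 to 2.58), and the exact two-sided permutation test of its CPM gave p = 0.865. *Csf3* had 2, 0, 0, 3 and 0 counts in WT and 1, 0, 0, 6 and 1 in *Zfp36*ΔARE libraries, with 6 of its 13 counts in *Zfp36*ΔARE replicate 4. Its rate ratio was 1.69 (0.489 to 6.58), with an exact permutation p of 0.722. A library with 0 counts allows up to 3, which corresponds to 0.0843 to 0.150 CPM here. The intervals cover counting error only, and no difference was found in either gene, within intervals this wide.

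Levels were compared between genes only per length, as TMM-scaled RPKM, which divides CPM by the length of the gene model. *Csf1r* was the most abundant of the family in both groups, at 45.6 ± 12.8 RPKM in WT against 16.1 ± 3.95 in *Zfp36*ΔARE mice (SD, n = 5 each), and its libraries did not overlap with the next gene in either group. Below it in WT skin came *Csf2ra* (14.6), *Csf1* (12.9), *Il34* (12.8) and *Csf2rb* (9.01), and each neighbor in this order overlapped with the next in its range of libraries. In *Zfp36*ΔARE skin the mean RPKM values ran *Il34* (8.17), *Csf2ra* (7.49), *Csf1* (7.25) and *Csf2rb* (4.54), again with overlapping neighbors, so the change of order among them is within the spread. *Csf3r* followed, set apart from its neighbors, at 2.32 and 0.893 RPKM. *Csf2* (0.117 and 0.128) and *Csf3* (0.0261 and 0.0554) came last.

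The design allows the question of whether the lower receptor level went with less ligand. Summed per length, *Csf1* and *Il34* reached 30.9, 22.8, 31.6, 21.4 and 21.7 RPKM in WT and 15.7, 14.9, 13.04, 17.3 and 16.1 in *Zfp36*ΔARE libraries. Every *Zfp36*ΔARE library thus had less combined *Csf1r* ligand RNA than every WT library. *Il34* made up 49.98% ± 5.78 of this sum in WT mice and 53.3% ± 4.33 in *Zfp36*ΔARE mice (SD, n = 5 each), with overlapping ranges of 42.5% to 56.6% and 46.9% to 58.0%. The RPKM of *Csf1r* per RPKM of combined ligand was 1.78 ± 0.40 in WT (1.36 to 2.43) and 1.04 ± 0.18 in *Zfp36*ΔARE skin (0.783 to 1.21).

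The receptor fell further than its ligands, as tested on log2 ratios of CPM + 0.5 within each library. The log2 ratio of *Csf1r* over *Csf1* was 1.34, 1.98, 1.79, 1.49 and 1.44 in WT and 0.89, 0.61, 1.08, 0.98 and 1.11 in *Zfp36*ΔARE libraries, a difference of -0.67 (SE 0.15) without overlap. Its exact two-sided permutation p was 0.00794, or 0.0317 after Benjamini-Hochberg adjustment over the 8 ratios tested. Against *Il34*, the log2 ratio of *Csf1r* ranged from 2.29 to 3.42 in WT and from 1.53 to 2.38 in *Zfp36*ΔARE libraries, a difference of -0.87 (SE 0.24, exact permutation p = 0.0159, adjusted p = 0.0423). This second ratio overlapped between groups, and its adjusted p rose to between 0.0635 and 0.0847 when any of 7 libraries was left out (each one other than WT replicates 4 and 5 and *Zfp36*ΔARE replicate 4). Without *Zfp36*ΔARE replicate 2, the *Csf1r* over *Csf1* difference was -0.59 with an adjusted p of 0.0635.

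Between the ligands, and between the GM-CSF receptor chains, no difference beyond the spread between libraries was found. *Il34* over *Csf1* differed by 0.20 on the log2 scale (SE 0.19, exact permutation p = 0.310, adjusted p = 0.413), so the data did not show that one ligand fell more than the other. It was 0.090 without WT replicate 1 and 0.29 without WT replicate 5. *Csf2ra* over *Csf2rb* differed by 0.037 (SE 0.16, exact permutation p = 0.921, adjusted p = 0.921). The WT libraries were closely spaced for this ratio of the GM-CSF receptor chains, from -0.71 to -0.57, while the *Zfp36*ΔARE libraries ran from -1.18 to -0.26.

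**Figure D2:**
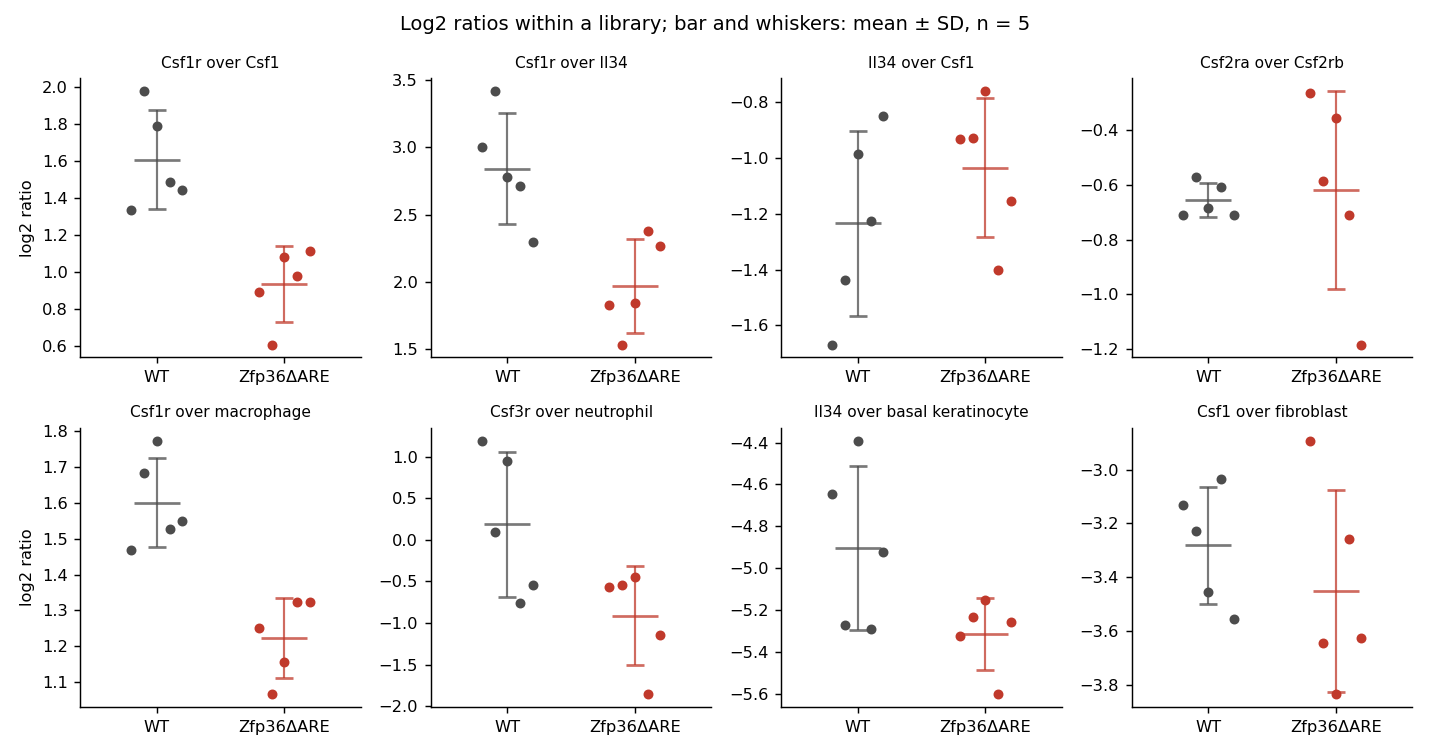
Log2 ratios of CPM + 0.5 (y axis; each panel has its own scale, which does not start at 0) in the 5 WT (gray) and 5 *Zfp36*ΔARE (red) libraries, each point 1 library, with the mean and SD. *Csf1r* over *Csf1* and *Csf1r* over the macrophage markers did not overlap between groups, while *Il34* over *Csf1* and *Csf2ra* over *Csf2rb* did.

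*Csf1r* followed the markers of the cells known to carry it. As a background for the counts in this and the later lists, 19.1% of all tested genes fell and 15.3% rose. Of 14 macrophage markers, 12 fell, with a median log2 fold change of -1.33, among them *Lyz2*, encoding lysozyme (13612 ± 3969 against 3681 ± 930 normalized counts, log2 fold change -1.89), and *Mrc1*, the mannose receptor (5189 ± 1478 against 1973 ± 388, -1.40; SD, n = 5 each). *Mertk*, a receptor for the uptake of dying cells, had 779 and 714 (-0.12, adjusted p = 0.329) and did not pass. In the summed level of the 14 markers the groups did not overlap (26894 to 50506 against 14374 to 19963 normalized counts). The log2 fold changes of 3 markers, *Lyz2*, *Cd14* and *C1qa*, were more negative than that of *Csf1r*, and those of 11 were less so.

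Relative to the mean log2 of these 14 markers, *Csf1r* was lower in every *Zfp36*ΔARE library (1.07 to 1.32) than in every WT library (1.47 to 1.77), a difference of -0.38 (SE 0.075, exact permutation p = 0.00794, adjusted p = 0.0317). Without *Zfp36*ΔARE replicate 2 the difference was -0.34, and its exact permutation p stayed at 0.00794. Its adjusted p was then 0.0635, because the adjustment also uses the p-values of the other ratios, and that of *Csf1r* over *Csf1* rose to 0.0159.

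Markers of other cells that bear these receptors were mixed. Of 5 monocyte markers, 2 fell, *Ccr2*, the receptor for CCL2 (1015 ± 280 against 324 ± 114 normalized counts, log2 fold change -1.65), and *Plac8* (595 ± 250 against 189 ± 27.1, -1.66). *Ly6c2* (42.4 against 52.4) and *Chil3* (45.0 against 15.3, adjusted p = 0.0601) did not pass. Of 8 Langerhans and dendritic cell markers, 6 fell, led in abundance by the class II antigen presentation genes *Cd74* (-1.01), *H2-Aa* (-0.91) and *H2-Ab1* (-0.85), and including *Cd207*, which encodes langerin (422 against 245 normalized counts, -0.79). *Ly75* (0.029) and *Zbtb46* (-0.036) did not pass. The medians were -1.63 for the monocyte list and -0.88 for the dendritic list.

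For neutrophils, which depend on *Csf3r*, a change of the markers was not shown. Only 5 of 14 had enough counts to be tested, with adjusted p from 0.463 to 0.998 and a median log2 fold change of -0.0022. The defining markers were near 0, with 1 count of *Ly6g*, 31 of *Mpo* and 24 of *Elane* over the 10 libraries together. *S100a8* and *S100a9*, which encode calprotectin and are also made by activated keratinocytes, gave most of the summed level, which was 1068 to 5103 normalized counts in WT and 1093 to 18914 in *Zfp36*ΔARE libraries, the highest in *Zfp36*ΔARE replicate 4. *Cxcr2*, a chemokine receptor of neutrophils, had 287 ± 82.4 and 245 ± 190.2 (SD, n = 5 each; log2 fold change -0.24, adjusted p = 0.697). The log2 ratio of *Csf3r* over the tested neutrophil markers differed by -1.10 (SE 0.47, exact permutation p = 0.0635, adjusted p = 0.127), with overlapping groups. This difference moved with the libraries used, at -1.33 (adjusted p = 0.0423) without WT replicate 4 and at -0.51 (adjusted p = 0.571) without WT replicates 1 and 3.

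Tested markers of mast cells, eosinophils and endothelial cells fell as well. All 6 mast cell markers fell (median log2 fold change -1.69), led in abundance by the protease genes *Mcpt4* (-1.71), *Cpa3* (-2.0) and *Cma1* (-1.74), as did both tested eosinophil markers, *Siglecf* (-0.998) and *Ccr3* (-1.33), while *Prg2* (28 counts in all) was not tested. All 8 endothelial markers fell (-0.98), among them *Pecam1* (-1.09), *Vwf* (-1.11) and *Flt1* (-0.64). Of the T cell markers, 1 of 8 fell, *Thy1* (-0.94), which fibroblasts also make, whereas *Lck* (0.21, adjusted p = 0.274) and *Il2rb* (-0.18, adjusted p = 0.578) did not pass. The median of that list was -0.23, and 19.1% of all tested genes fell.

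Keratinocytes and fibroblasts, known sources of the ligands, were compared in the same way, against 19.1% of all tested genes that fell. Among basal keratinocyte markers 2 of 7 fell, with a median log2 fold change of -0.17 and *Krt5* at -0.068, *Krt14* at -0.14 and *Col17a1* at -0.28, none of these 3 past the threshold. Suprabasal markers gave 1 lower (*Sbsn*, -0.39) and 1 higher of 6 tested, with *Krt1* at -0.37 and *Krt10* at -0.62 not passing and a median of -0.38. *Il34* relative to the basal markers differed by -0.41 (SE 0.19, exact permutation p = 0.0952, adjusted p = 0.152), with overlapping groups, and by -0.15 without WT replicates 1 and 3. Of 8 fibroblast markers, 5 fell (median -0.58), while the collagen genes *Col1a1* (-0.21), *Col1a2* (-0.15) and *Col3a1* (-0.59) did not pass. *Csf1* relative to the fibroblast markers differed by -0.17 (SE 0.19, exact permutation p = 0.397, adjusted p = 0.454), from -0.31 without *Zfp36*ΔARE replicate 1 to -0.073 without replicate 3. A difference of either ligand from these markers was therefore not shown.

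Tissue of the deeper skin and of the hair moved as well. Skeletal muscle markers fell in 7 of 8 (median log2 fold change -1.56), among them *Acta1* (-1.52), *Tnnt3* (-1.45) and *Myh4* (-1.88). Adipocyte markers fell in 6 of 8 (-1.19), including *Cfd* (-1.11) and *Plin4* (-1.04), with *Fabp4* at -0.28 (adjusted p = 0.233). Hair shaft keratins had a median of 2.30, with 1 of 9 past the threshold and *Krt33a* (2.30), *Krt86* (2.25) and *Krt81* (2.38) at adjusted p from 0.0868 to 0.0983.

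**Figure D3:**
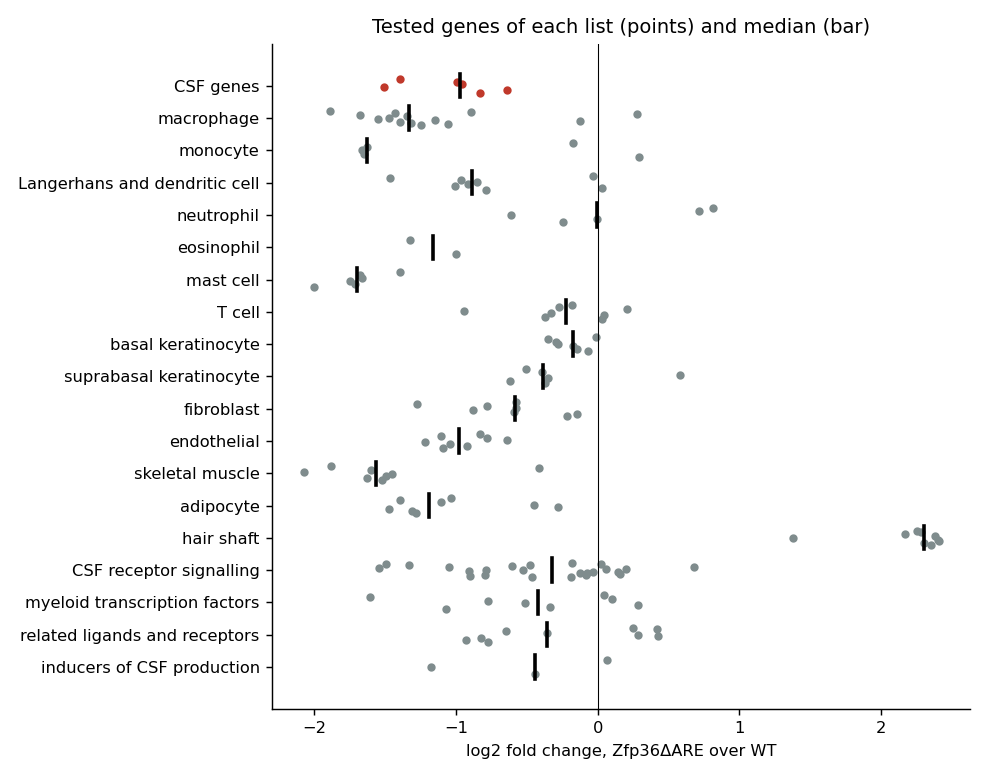
Log2 fold changes (x axis, *Zfp36*ΔARE over WT) of the tested genes of the CSF family (red) and of 18 marker and pathway lists (gray), each point 1 gene, with the median of each list as a bar. The CSF family (median -0.97) sits near the endothelial (-0.98) and dendritic (-0.88) lists, between macrophage markers (-1.33) and basal keratinocyte markers (-0.17).

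These tissue scores bear on which genes of the family passed. With the hair shaft score as a covariate in edgeR, none of the 6 genes passed (adjusted p from 0.0924 to 0.319, 6 of 6 at an unadjusted p under 0.05), and the same held with the skeletal muscle score (0.113 to 0.310, 5 of 6 unadjusted) and the adipocyte score (0.502 to 0.868, 1 of 6 unadjusted). All 6 log2 fold changes stayed negative, but *Il34* shrank to -0.30, -0.28 and -0.10 in these 3 fits, and *Csf1r* was at -1.12, -1.55 and -1.29. Genotype also took few other genes past the threshold under these covariates, 47, 2 and 0 of 15543 (2353, 2772 and 1416 at an unadjusted p under 0.05), so genotype and tissue makeup cannot be told apart here. Each covariate was fitted with edgeR alone.

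WT replicates 1 and 3 had the lowest hair shaft scores. Without both, 5 of the 6 genes passed in edgeR, at log2 fold changes of -1.31 for *Csf1r*, -0.57 for *Csf1* and -0.45 for *Il34*. *Csf3r* did not pass (-1.09, adjusted p = 0.0618). The number lower by over 2-fold was then 1, against 2 with all libraries. *Zfp36*ΔARE replicate 1, the only one without Y-linked counts, lay below all WT libraries in all 6 genes, with *Csf1r* at 1557 against at least 3038. A fit of that library against the 5 WT libraries gave log2 fold changes from -1.70 to -0.55. It assumed that the lone library varies like the WT group, so whether a gene passed cannot be judged from it. With each library left out in turn, all 6 genes passed every time.

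**Figure D4:**
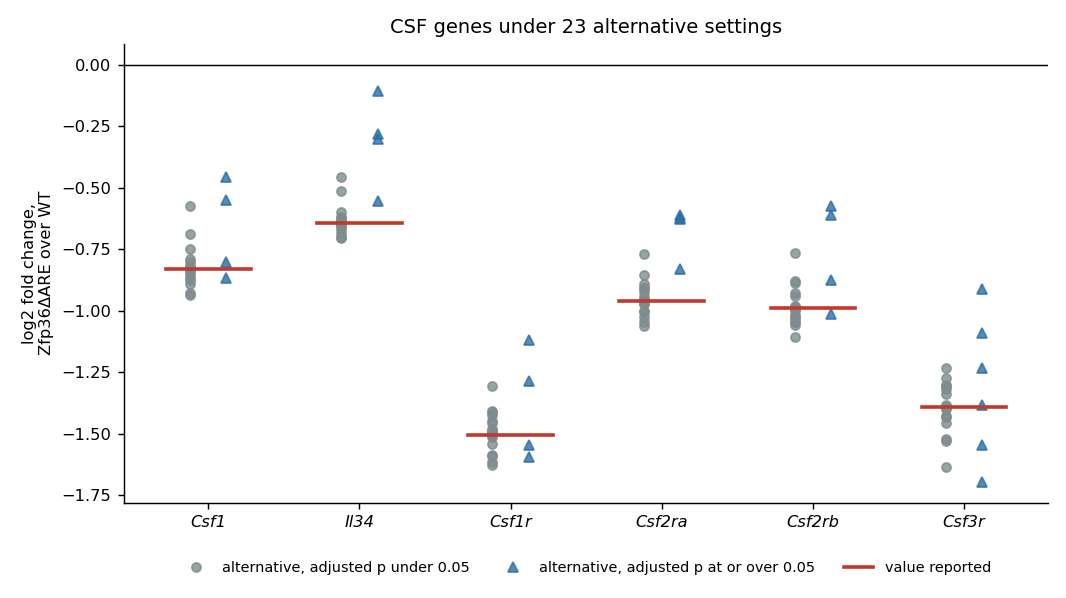
Log2 fold changes (y axis, *Zfp36*ΔARE over WT) of the 6 tested genes under 23 alternative settings, as gray circles where the adjusted p was under 0.05 and blue triangles where it was not, with the reported value as a red line. Every value was below 0, and *Il34* came closest to it, at -0.10 with the adipocyte covariate.

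Downstream of these receptors, 12 of 24 signaling genes fell and 1 rose. Among those lower by over 2-fold were *Tyrobp*, the adaptor DAP12 (1461 ± 419 against 521 ± 133 normalized counts, SD, n = 5 each; log2 fold change -1.49), *Inpp5d*, the lipid phosphatase SHIP1 (-1.33), and *Lyn*, a Src family kinase of myeloid cells (-1.05), all with adjusted p under 0.005. Among the signal transducers, *Stat5a* (-0.90) and *Stat5b* (-0.80), which act below the GM-CSF receptor, and *Stat3* (-0.46), which acts below CSF3R, fell. *Fyn*, a Src family kinase that T cells and keratinocytes also use, rose (0.68, adjusted p = 0.0053). Among the 11 genes that did not pass were *Jak2* (-0.19, adjusted p = 0.0625), *Grb2* (-0.074) and *Akt1* (0.056), and the feedback genes *Cish* (-0.085), *Socs1* (0.16) and *Socs3* (-0.13). The median of the list was -0.32.

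Of 8 myeloid transcription factors, 4 fell. *Spi1*, encoding PU.1, which drives *Csf1r* transcription, went from 356 ± 86.0 to 170.0 ± 45.0 normalized counts (SD, n = 5 each; log2 fold change -1.07, adjusted p = 0.0085). *Gfi1*, which encodes a transcriptional repressor that acts within the granulocyte lineage, was called at a low level (22.9 ± 7.04 against 7.55 ± 4.70, -1.61, adjusted p = 0.0134). *Irf8* (-0.77) and *Cebpa* (-0.34) fell less, and *Cebpb* (0.29, adjusted p = 0.254) and *Klf4* (0.046, adjusted p = 0.750) did not pass. The median of this list was -0.42.

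Relatives of the family went in both directions. Of 11 related ligands and receptors, 9 were tested, with 4 lower, 1 higher and a median of -0.35. Besides *Csf2rb2*, these were *Il3ra*, the IL-3 receptor alpha chain (193 ± 45.6 against 100.9 ± 15.7 normalized counts, -0.93), *Flt3*, the receptor of dendritic cell progenitors (-0.64, adjusted p = 0.0421), and its ligand *Flt3l* (-0.35, adjusted p = 0.0483). *Kit*, the stem cell factor receptor of mast cells and melanocytes and a close relative of *Csf1r*, rose from 1222 ± 73.7 to 1489.9 ± 81.7 (SD, n = 5 each; 0.29, adjusted p = 0.0089), while the 6 mast cell markers fell. Its ligand *Kitl* (0.42, adjusted p = 0.131), *Il5ra* (-0.82, adjusted p = 0.0601), and *Ptprz1* (0.42) and *Sdc1* (0.25), which encode other proposed IL-34 binding partners, did not pass. *Il3* had 1 count and *Il5* 33 counts over all libraries.

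**Figure D5:**
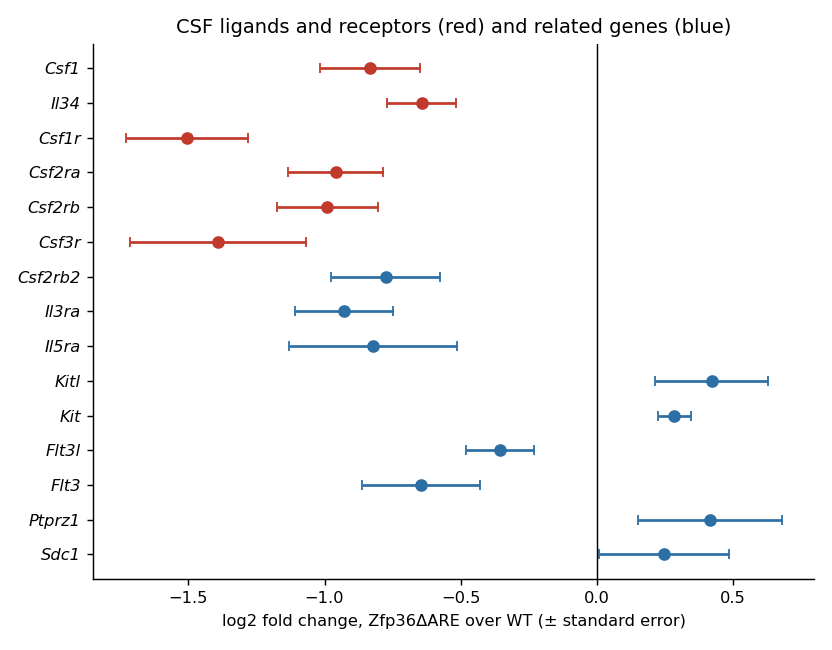
Log2 fold changes (x axis, *Zfp36*ΔARE over WT, points) with their standard errors (bars) for the 6 tested CSF ligands and receptors (red) and 9 related genes (blue). All 6 red points lie below 0, from -1.50 to -0.64, and *Kit* (0.29) is the only related gene that rose past the threshold.

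Of 6 cytokines known to induce CSF production, 3 had too few counts to be tested and 1 fell, as did 19.1% of all tested genes. *Il1b* fell from 119 ± 26.2 to 53.5 ± 38.4 normalized counts (SD, n = 5 each; log2 fold change -1.17, adjusted p = 0.0342), with *Zfp36*ΔARE replicate 4 at 121.5 against 30.7 to 42.2 in the other 4. *Il1a* (-0.44, adjusted p = 0.0505) and *Tnf* (69.5 against 72.6, 0.062) did not pass, and the median of these 3 tested genes was -0.44. *Il6*, *Il17a* and *Il17f* had 61, 22 and 93 counts over the 10 libraries.

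The genes with the profiles most like *Csf1r*, *Csf1* and *Il34* were sought by the root mean square difference of centered log2(CPM + 0.5) over the 10 libraries, among 13690 genes with a mean of at least 50 normalized counts. For *Csf1r* they were *Clec4a3* (0.0857), *Mrc1* (0.114), *Clec4a1* (0.115), *Cd14* (0.129) and *Ms4a7* (0.136), against a median of 0.844 over all genes. For *Csf1* they were *Bicc1* (0.102), *Snx20* (0.104), *Dnm1* (0.105), *Kcnab2* (0.106) and *Tnfaip8l2* (0.106), with a median of 0.531. For *Il34* they were *Mylk* (0.0612), *Nfic* (0.0695), *Kank2* (0.0728), *Gm10336* (0.0736) and *Fam20c* (0.0760), with a median of 0.407. The receptor and its ligands had no gene in common among these neighbors. This measure also ranks genes by the size of their change, which was larger for the receptor than for its ligands. The empty overlap therefore does not show that their profiles differ in shape. All 15 genes fell in *Zfp36*ΔARE skin, with log2 fold changes from -1.68 to -0.55, and these profiles share the libraries and the group difference, so the likeness is a description.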

How the data were processed

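RNA-Seq was performed on total RNA from full-thickness skin, with 5 libraries per genotype and 1 mouse per library. The authors discarded reads whose mean quality was below 20, aligned those left to mm10 with STAR 2.5.2b, counted fragments per gene with featureCounts (Subread 1.5.0-p1) and deposited raw counts for 24454 entries without normalization. Strand use and the handling of multi-mapping fragments are not given in the sources used here, so near-identical or overlapping genes are uncertain. Entries with no gene name (2, with 7.38e-05% of counts) were left out.

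From these counts, edgeR 4.0.16 (R 4.3.3) computed TMM factors, applied filterByExpr and fitted a robust quasi-likelihood model with genotype as the only term, in place of the DESeq2 test of the study, which was kept as an alternative. Adjustment was by the Benjamini-Hochberg method over 15543 genes. A gene "passed", and is said to have risen or fallen, with an adjusted p under 0.05, and was "called" with a fold change over 2 as well. Ratios used log2(CPM + 0.5), and a marker list entered as the mean log2 of its tested genes. Exact two-sided permutation tests went through every split of the libraries into groups of the same sizes. The Benjamini-Hochberg adjustment of the ratios and the exact intervals were made with scipy 1.17.1. Gene lengths were those of the count table. The script was tested on simulated data.

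The 8 genes, the 18 lists, the ratios and the tests were chosen with earlier results of these data known. Genes named besides the family were *Csf2rb2*, *Zfp36*, up to 3 members of each marker list with the most counts, called members of the pathway lists, and the 5 nearest profiles. Other genes were named after their values were seen, and a few list members are not reported here. Replicate numbers did not pair the libraries: the correlation of deviations between same-numbered libraries ran from -0.190 to 0.086. No 2 libraries of a group agreed within sampling noise (lowest chi-square per degree of freedom 20.7).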

Additional observations from a re-analysis of the deposited data

Results flagged for a closer look

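Single libraries that stood far from the other 4 of their group were looked for in 198 groups of 5, with a critical gap of 0.71 of the group's range, and 10 were found where chance gives about 9.9. In *Zfp36*ΔARE replicate 4, *Csf3* was at 8.01 normalized counts (others 0 to 1.32), which rests on 6 counts. The same library had 6289.9 normalized counts of *S100a8* (others 493 to 1688), 12004 of *S100a9* (403 to 2281) and 121.5 of *Il1b* (30.7 to 42.2). *Zfp36*ΔARE replicate 3 had 93.3 normalized counts of *Il2rb* (others 151 to 170.1), 73485 of *Krt81* (19371 to 34203) and 211 of *Gm10336* (227 to 233). *Gfi1* had 15.8 in *Zfp36*ΔARE replicate 5 against 4.39 to 6.74. WT replicate 1 had 6024 normalized counts of *Thy1* (others 4047 to 4193) and 76967 of *Krt1* (120632 to 135788). Among the 8 CSF genes, *Csf3* was the single one with such a library, and the cause was not tested for any of them.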

How the results depend on the processing

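All 6 tested genes stayed lower in each of 23 alternatives, and all 6 passed with DESeq2, with limma-voom, under upper-quartile scaling or the size factors of DESeq2, without robust dispersions, under a minimum of 10 counts per library or no filter at all, and with each library left out. The number that passed was 0 with the hair shaft, skeletal muscle or adipocyte score as a covariate. Libraries without Y-linked counts leave 1 *Zfp36*ΔARE library, so no number is given for them. The number lower by over 2-fold, 2 as reported, was 4 with upper-quartile scaling. It was 2 to 4 with single libraries left out (4 without WT replicate 4 or 5 or *Zfp36*ΔARE replicate 4). It was 1 with the replicate block, 1 without WT replicates 1 and 3, and 0 with each covariate.

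The numbers share only a label, and no WT library correlated best with its own number. With the replicate block, 5 of the 6 passed (*Csf3r* adjusted p = 0.0566) and 2740 genes passed overall against 5335. The blocked log2 ratio differences of *Csf1r* over *Csf1* (-0.67), *Il34* (-0.87) and macrophage markers (-0.38) each had an adjusted p of 0.125, since 5 pairs allow no exact p under 0.0625. Without WT replicates 1 and 3 they were -0.70 (adjusted p = 0.0714), -0.84 (0.143) and -0.36 (0.0714), with *Csf3r* over neutrophil markers at -0.51 (0.571). For *Csf1r* over *Csf1* and over macrophage markers, the exact permutation p was then 0.0179, the smallest that 3 against 5 libraries allow. Their adjusted p therefore reflects the smaller number of libraries as well. The cause of the changes with the libraries used was not tested.

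Leaving out single libraries gave -0.74 to -0.58 for *Csf1r* over *Csf1*, -1.01 to -0.73 over *Il34* and -0.41 to -0.33 over macrophage markers. It gave -1.33 to -0.85 for *Csf3r* over neutrophil markers, 0.090 to 0.29 for *Il34* over *Csf1*, -0.51 to -0.28 for *Il34* over basal keratinocyte markers and -0.31 to -0.073 for *Csf1* over fibroblast markers. *Csf2ra* over *Csf2rb* went from -0.052 to 0.18 and turned negative without *Zfp36*ΔARE replicate 1 (-0.052) or 3 (-0.029). The CPM difference of *Csf2*, 0.0115 as reported, went from -0.0187 to 0.0614, and was -0.00143, -0.00355, -0.0187 and -0.00478 without WT replicates 1, 2 and 4 and *Zfp36*ΔARE replicate 5. That of *Csf3*, 0.0399 as reported, went from -0.0163, without *Zfp36*ΔARE replicate 4, to 0.0588. Depth limits these last 2 genes.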
